A study of Mus musculus with 8 samples.

Results

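The scavenger receptors described here are 9 genes, Marco, Msr1, Cd36, Scarb1, Scarb2, Cd68, Stab1, Olr1 and Cd163, out of 23354 gene symbols in the expression tables. They were found by symbol, each has 1 row in every table, and all 9 were measured in all 8 libraries. Levels are FPKM, fragments per kilobase of transcript within a fixed total of mapped fragments, so levels of different genes can be set side by side.

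The samples were macrophages grown for 7 days from bone marrow of male mice, 8 weeks old, on a C57BL/6J background, in L929-conditioned medium, which supplies the growth factor that macrophages need. By title, 4 libraries came from Ern1f/f cells, in which the Ern1 gene is flanked by loxP sites, and 4 from Ern1f/fLyz2-Cre cells, which carry the same floxed gene and Cre recombinase expressed from the Lyz2 locus of myeloid cells. All groups therefore carry the floxed allele, and none is wild type. Ern1 encodes IRE1α, a sensor of stress in the endoplasmic reticulum, and the series compared the cells by genotype with and without IL-4. Within each genotype, 2 libraries were untreated controls and 2 received IL-4 at 20 ng/ml for 24 hours. Libraries numbered 1 are called set 1 and libraries numbered 2 are called set 2, with 4 libraries in each. The genotype field of the labels reads Ern1f/f for all of set 1 and Ern1f/fLyz2-Cre for all of set 2, against the title in 4 libraries. Groups follow the titles here. Lyz2, the locus that carries Cre, was lower in the library titled Cre in all 4 pairs: 18110 against 10950 FPKM (control) and 8901 against 5780 FPKM (IL-4) in set 1, and 17420 against 2171 FPKM and 11960 against 1572 FPKM in set 2. Those levels run with the titles, and the set 2 libraries titled Ern1f/f were not low in Lyz2. The averaged difference of -1.82 ± 0.46 log2 units (SE, number as a block) had an adjusted p of 0.99977 by limma. The labels do not say whether the libraries came from separate cultures or mice, so the p-values measure the spread between these libraries only.

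Scavenger receptors are surface and endosomal proteins that bind modified lipoproteins, polyanions, bacterial products and dying cells, and macrophages are the cell type best known for them. Class A receptors (Marco, Msr1) bind through collagen-like stalks and cysteine-rich domains, and class B receptors (Cd36, Scarb1, Scarb2) share a loop held by a transmembrane segment at each end. IL-4 acts through STAT6 and turns on a programme of endocytic receptors and lipid use, with PPARγ among its factors.

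Promoter sequences are printed for 3 of these genes. Cd36 and Olr1 are shown because every IL-4 library lay above every control, and Marco because it had the lowest IL-4 level relative to control and the widest range between libraries, 122.6-fold. In GENCODE M21 (GRCm38) Cd36 lies on chromosome 5 from 17781690 to 17888801, Olr1 on chromosome 6 from 129485244 to 129507165 and Marco on chromosome 1 from 120474538 to 120505024, all on the minus strand. Each run holds 250 bases before and 50 bases from an annotated start, 5′ to 3′ on the gene's own strand, from RefSeq on the GRCm38.p6 build. Capitals mark letters found by search on both strands: TTC and GAA with 4 bases between them, the spaced palindrome bound by STAT6; AGGTCA, the hexamer bound by nuclear receptors such as PPARγ and its partner RXR; and GAGGAA, the core bound by PU.1.
Cd36, chr5:17835847-17836146, minus strand: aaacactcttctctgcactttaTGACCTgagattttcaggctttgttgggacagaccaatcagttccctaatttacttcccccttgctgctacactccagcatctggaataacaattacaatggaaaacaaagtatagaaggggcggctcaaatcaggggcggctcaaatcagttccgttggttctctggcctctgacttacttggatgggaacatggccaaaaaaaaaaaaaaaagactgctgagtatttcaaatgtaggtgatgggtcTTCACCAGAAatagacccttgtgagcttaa
Olr1, chr6:129507116-129507415, minus strand: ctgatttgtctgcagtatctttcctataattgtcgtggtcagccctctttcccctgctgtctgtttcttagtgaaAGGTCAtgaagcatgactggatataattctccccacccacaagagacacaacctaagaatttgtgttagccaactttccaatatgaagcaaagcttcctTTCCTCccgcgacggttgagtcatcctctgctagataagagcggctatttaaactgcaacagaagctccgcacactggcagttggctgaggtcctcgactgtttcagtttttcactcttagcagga
Marco, chr1:120504975-120505274, minus strand: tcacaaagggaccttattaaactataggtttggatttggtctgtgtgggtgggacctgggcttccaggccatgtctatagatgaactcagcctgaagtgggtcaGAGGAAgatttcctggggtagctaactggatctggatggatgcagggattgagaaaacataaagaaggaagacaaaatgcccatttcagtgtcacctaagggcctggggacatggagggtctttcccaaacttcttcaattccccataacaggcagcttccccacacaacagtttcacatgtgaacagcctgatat

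Of the 7 receptors with a promoter in the RefSeq table, Cd36 was the 1 whose window held the STAT6 palindrome (TTC, 4 bases, GAA), 21 bases after the start, against 6.95% of 32851 promoters of the same length. AGGTCA was found in Cd36 (reverse strand, at -228) and Olr1 (at -175), and in 16.3% of all promoters. GAGGAA was found in 4 of the 7 (Marco, Stab1, Cd68 and Olr1), against 28.3% of all promoters. The shorter STAT palindrome TTCNNNGAA (8.3% of all promoters), the direct repeat of AGGTCA after 1 base (0.0396%) and the E-box CACGTG (7.15%) were in none of the 7 windows. TGACNNNGC, the core bound by NRF2, was in that of Scarb2 and in 12.4% of promoters. A direct repeat would also count as AGGTCA. These matches are descriptions of letters in a window, and the Cd36 window lies inside the gene's locus, at a start downstream of its first one.

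The cells had the levels of macrophages. All 7 macrophage markers were at or above 1 FPKM in every library, among them Csf1r (356 to 870 FPKM) and Emr1, which encodes F4/80 (357 to 917 FPKM). Fibroblast markers summed to 65.1 to 395 FPKM in set 1 and to 1.09 to 5.43 FPKM in set 2, with Col1a1 and Col1a2 the most abundant, and 4 of the 5 genes were at or above 1 FPKM in set 1. B cell, T or NK cell, erythroid, adipocyte and dendritic cell lists each summed to at most 1.003 FPKM. The endothelial list summed to 5.69 to 11.5 FPKM, with Pecam1 at 2.23 to 9.58 FPKM and Kdr at 0.927 to 2.99 FPKM. Cdh5, Tek and Stab2 of that list were at most 0.469 FPKM. In the megakaryocyte and platelet list Pf4 stood at 81.6 to 228 FPKM. The other genes of that list were low: Itga2b at 0.112 to 1.54 FPKM, Gp9 at 0 to 2.25 FPKM and Gp1bb at most 0.919 FPKM. Arg1, a marker of the IL-4 response, was 5.83 ± 0.35 log2 units higher with IL-4 (SE; limma, adjusted p = 0.00732). Ern1, the targeted gene, had 11.5 FPKM in the untreated Ern1f/f library of set 1 and 9.55 FPKM in that of set 2, and after IL-4 10.2 and 9.11 FPKM. In untreated Ern1f/fLyz2-Cre libraries it had 14.3 and 12.7 FPKM, and after IL-4 7.43 and 10.98 FPKM. One value per gene does not show whether exons are missing, so the deletion is not checked by it. Per library, 25200000 to 41000000 fragments were implied by the deposited confidence intervals.

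Cd68, the lysosomal glycoprotein used as a macrophage marker, had the highest level of the 9 genes in all 8 libraries, from 669 to 1001 FPKM, and made up 48.6% to 65.8% of their summed FPKM. Cd36 followed in set 1, with 149 to 316 FPKM, ahead of Msr1. Marco held the seventh place in every library of set 1, at 3.36 to 17.5 FPKM. In set 2 it held the second place in both controls and the third in both IL-4 libraries, at 194 to 412 FPKM. Scarb1 (34.6 to 60.8 FPKM), Scarb2 (33.7 to 76.1 FPKM) and Stab1 (23.1 to 86.1 FPKM) had overlapping ranges, and their order changed between libraries. Olr1 (0.0488 to 1.09 FPKM) and Cd163 (0.0702 to 0.215 FPKM) were the lowest in every library.

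**Figure D1:**
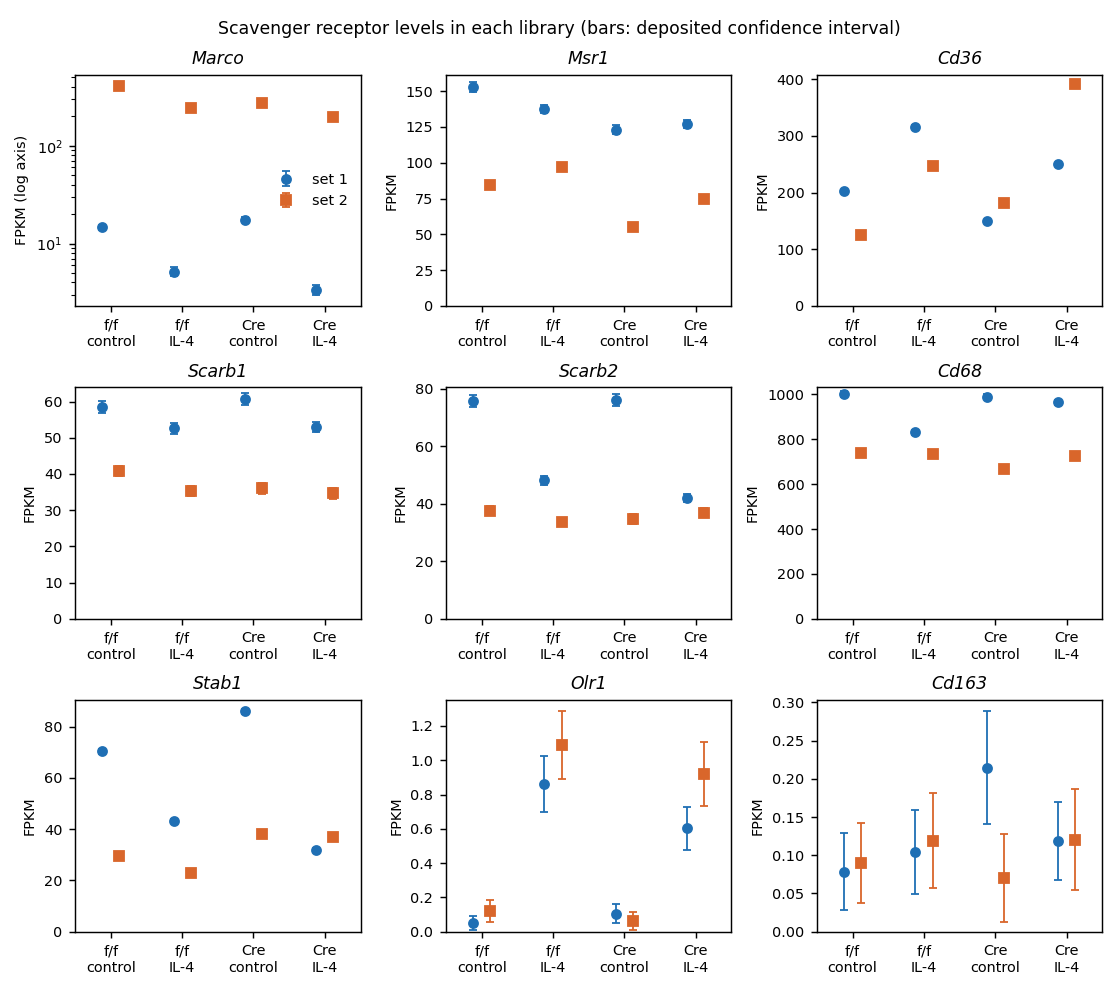
FPKM of each of the 9 scavenger receptors (y axes; log axis for Marco, linear from 0 for the others) in the 4 groups (x axes; f/f is Ern1f/f, Cre is Ern1f/fLyz2-Cre), with 1 point per library, circles for set 1 and squares for set 2. Bars are the deposited confidence interval of that library and cover counting error only; Marco parts by set, Cd36 and Olr1 stand higher with IL-4 in both sets.

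The first comparison asked which receptors differed with IL-4. Cd36 and Marco passed the test, in opposite directions, when the replicate number was kept as a block in the fit, and none of the 7 tested receptors passed without it. In all comparisons, values were fitted as log2(FPKM + 1) with limma over the 10934 genes at or above 1 FPKM in at least 2 libraries, with calls made where the Benjamini-Hochberg adjusted p was under 0.05. Olr1 and Cd163 fell below that filter. Averaged over genotypes and without the block, limma called 0.841% of all genes (0.668% higher, 0.174% lower) and 0 of the 7 receptors (lowest adjusted p = 0.181), with 1 receptor at an unadjusted p under 0.05. With the block it called 12.7% of all genes (5.88% higher, 6.86% lower) and 2 of the 7, 1 in each direction. The median difference of the 7 was -0.15 log2 units, and that of all genes -0.03. In this bulk RNA, fewer cells of a type and less RNA per cell cannot be told apart.

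Cd36, a fatty acid transporter and receptor for oxidised LDL and apoptotic cells, had 202 and 125 FPKM in the untreated Ern1f/f libraries of sets 1 and 2, and 316 and 246 FPKM after IL-4. In Ern1f/fLyz2-Cre cells it stood at 149 and 182 FPKM in controls and at 250 and 391 FPKM with IL-4. All 4 IL-4 libraries lay above all 4 controls, which held for 6.98% of all tested genes, and Cd36 was the 1 receptor of the 7 to show this; none of the 7 lay wholly below its controls, as 7.23% of all genes did. IL-4 levels were 1.56 and 1.97 times control in Ern1f/f and 1.68 and 2.15 times control in Ern1f/fLyz2-Cre. Averaged over genotypes the log2 difference was 0.86 ± 0.22 (SE, fit with the block), a 1.82-fold rise, with an adjusted p of 0.0489 by limma. Without the block the SE was 0.23 and limma's adjusted p was 0.181. The call rested near the threshold. It was lost with median scaling (adjusted p = 0.0569), a pseudocount of 5 (0.058), no filter (0.144) or no trend in the variance (0.0532), and when any 1 library other than Ern1f/f control 1 was left out (adjusted p by limma 0.0549 to 0.139).

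Marco, which binds bacteria and inhaled particles and is typical of tissue macrophages such as those of lung and spleen, stood at 14.7 FPKM in the Ern1f/f control and 5.18 with IL-4 in set 1, and at 412 and 240 FPKM in set 2. In Ern1f/fLyz2-Cre cells the pairs were 17.5 and 3.36 FPKM in set 1, and 271 and 194 FPKM in set 2. Within each genotype and set the IL-4 library was the lower one, at 35.25% and 19.2% of control in set 1 (Ern1f/f, then Cre) and at 58.4% and 71.7% in set 2. Across sets the control and IL-4 groups overlapped, because every library of set 2 exceeded every library of set 1. With the block, Marco fell by 1.17 ± 0.25 log2 units (SE), or 2.25-fold, with IL-4 (adjusted p = 0.0321 by limma). Without the block the SE was 1.99 and limma's adjusted p was 0.882. Leaving out Ern1f/f control 1, Ern1f/f IL-4 1, Cre IL-4 1, Ern1f/f control 2 or Cre IL-4 2 ended the blocked call (adjusted p by limma 0.0547 to 0.127), as did no filter (0.112). The larger fall in set 1 was tested as well: the log2 difference with IL-4 was higher in set 2 by 1.09, with an adjusted p of 0.164 by limma.

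Olr1 encodes LOX-1, the lectin-like receptor for oxidised LDL. It stood at 0.0488 and 0.12 FPKM in Ern1f/f controls and at 0.105 and 0.0646 FPKM in Cre controls, from 6 to 15 implied fragments per library. With IL-4 it stood at 0.86 and 1.09 FPKM in Ern1f/f and at 0.604 and 0.92 FPKM in Ern1f/fLyz2-Cre cells, from 92 to 122 implied fragments. Every IL-4 library lay above every control. Levels were 17.6 and 9.07 times control in Ern1f/f and 5.77 and 14.2 times in Ern1f/fLyz2-Cre cells (set 1, then set 2). These ratios rest on the few control fragments. How many genes below the filter showed such a pattern was not counted. A fit without the filter on low values was turned to for Olr1 after the values were seen. There, without the block, its log2 difference was 0.78 ± 0.07 (SE, adjusted p = 0.0312 by limma). That fit called 0.43% of 17656 genes. With the block the adjusted p by limma was 0.0165, in a fit that called more genes (count given below). On the log2(FPKM + 1) scale the pseudocount of 1 exceeds most of its values, so the difference understates the change. The call without the block was lost when any 1 of the 8 libraries was left out. The call with the block was not checked in this way.

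Stab1, Scarb1 and Scarb2 had lower mean levels with IL-4 but did not pass the test with or without the block. Stab1 encodes stabilin-1, a receptor for acetylated LDL and extracellular SPARC that also sorts lysosomal proteins. It read 70.4 and 43.2 FPKM in the Ern1f/f pair and 86.1 and 31.9 FPKM in the Cre pair of set 1 (control, then IL-4), and 29.4 and 23.1 FPKM and 38.1 and 37.1 FPKM in set 2. The IL-4 value was below its control in all 4 pairs, at 61.3% and 37.1% of control in set 1 (Ern1f/f, then Cre) and at 78.6% and 97.3% in set 2. Its averaged log2 difference was -0.62 ± 0.24 with the block (SE; adjusted p = 0.141 by limma).

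Scarb2 encodes LIMP-2, a membrane protein that carries glucocerebrosidase to lysosomes. In set 1 it read 75.6 and 48.1 FPKM in Ern1f/f and 76.1 and 41.9 FPKM in Cre cells (control, then IL-4). In set 2 it read 37.6 and 33.7 FPKM, and 34.7 and 36.8 FPKM. The IL-4 libraries of set 1 were thus at 63.6% and 55.05% of control, and those of set 2 at 89.6% and 106% of control. The difference between the sets' IL-4 responses, 0.71 log2 units, had an adjusted p of 0.0674 by limma. With groups taken from the genotype field, which are the sets, limma called 0.969% of all genes for such a difference. Stab1 also fell more in set 1, and its difference between the sets' responses is given below. The averaged difference of Scarb2, -0.39 ± 0.16 log2 units (SE), had an adjusted p of 0.166 by limma with the block.

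Scarb1 encodes SR-BI, the HDL receptor that exchanges cholesteryl ester. It was at 86.9% to 95.9% of control with IL-4 in the 4 pairs, and its averaged difference was -0.15 ± 0.08 log2 units (SE, with the block; adjusted p = 0.245 by limma). With Marco and Stab1, it was 1 of 3 receptors lower with IL-4 in 4 of 4 pairs, a pattern that 23.5% of all tested genes showed. Cd36 alone of the 7 was higher in 4 of 4 pairs, as were 17% of all genes. Msr1, which takes up acetylated and oxidised LDL, was at 89.9% to 136% of control, and Cd68 at 83.0% to 108.5%, with differences of either sign. Cd163, the receptor for haptoglobin-haemoglobin complexes, rested on 6.09 to 33.3 implied fragments per library. It was at most 0.215 FPKM in every group, at 55.3% to 172% of control. In the fit without the filter and without the block, its log2 difference was 0.005 ± 0.04 (SE, adjusted p = 0.987 by limma).

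**Figure D2:**
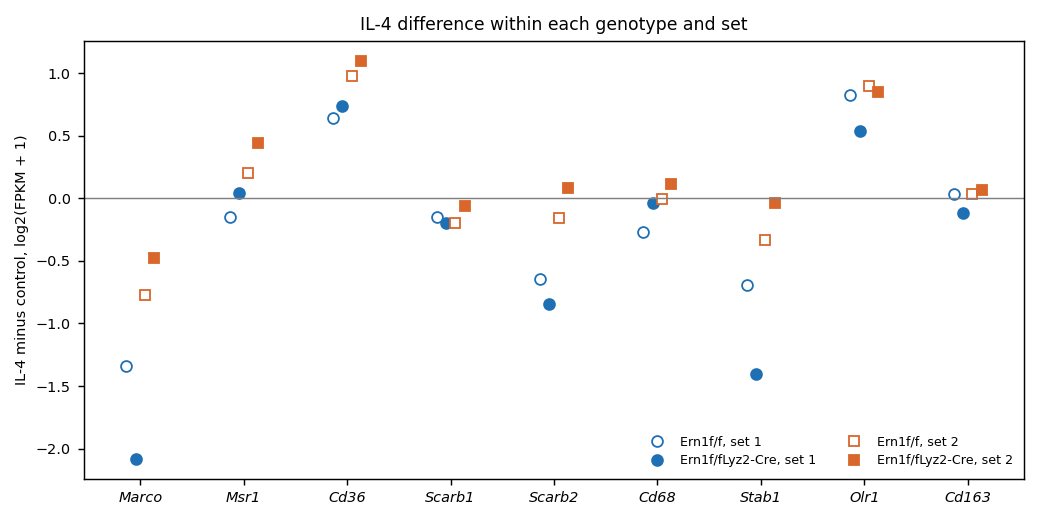
Difference between the IL-4 library and its control on the log2(FPKM + 1) scale (y axis) for each receptor (x axis), within each genotype and set: circles set 1, squares set 2, open Ern1f/f, filled Ern1f/fLyz2-Cre. Cd36 and Olr1 lie above 0 in all 4 pairs; Marco, Scarb1 and Stab1 lie below 0 in all 4.

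In Ern1f/f cells alone none of the 7 receptors was called by limma (0% of all genes; lowest adjusted p = 0.797, 1 receptor at an unadjusted p under 0.05), nor with the block (2.12% of genes; 0.2115, 2 receptors). In Ern1f/fLyz2-Cre cells alone the count was also 0 (0.0549% of genes; lowest adjusted p = 0.535, 1 receptor), with or without the block (3.32% of genes; 0.113, 2 receptors).

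Other genes of scavenging were described from 5 lists that hold 66 genes, 59 of them tested. For IL-4 averaged over genotypes, limma called 5.88% of all genes higher and 6.86% lower with the block. Without it the shares were 0.668% and 0.174%. Of 16 other scavenger receptors 10 were tested, and with the block 3 were called higher with IL-4 and 3 lower, with a median of -0.30 log2 units against -0.03 for all genes; without the block 1 was called, Mrc1 (adjusted p = 0.0188 by limma; up to 0.096 with a library left out). Mrc1, the mannose receptor, rose from 29.4 to 54.0 FPKM in the controls to 124 to 208 FPKM with IL-4, by 2.07 ± 0.11 log2 units (SE, with the block; adjusted p = 0.000543 by limma). Clec7a, the β-glucan receptor dectin-1, rose by 1.19 ± 0.09 and Cd44, a hyaluronan receptor, by 0.85 ± 0.12. Cd5l, a secreted scavenger receptor cysteine-rich protein of macrophages, fell by 1.25 ± 0.10, and Scarf2, a class F scavenger receptor, fell by 1.09 ± 0.12 (limma, adjusted p 0.00113 to 0.0086 for these 4). These 5 calls were kept with each library left out. Colec12, a class A member with a lectin domain, fell by 0.60 ± 0.15 (adjusted p = 0.0458 by limma), and kept the call in 2 of 8 such fits (without Cre control 2 or Ern1f/f IL-4 2). It also lost it with a pseudocount of 5 (0.0602), no filter (0.13) or no trend (0.0512).

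Among 14 transcription factors linked to these receptors, limma called none without the block and 2 with it, both higher, a share near the 12.7% of all genes called in that fit. Pparg rose in all 4 pairs, from 11.6 to 30.4 FPKM in controls to 26.9 to 63.9 FPKM with IL-4, by 1.17 ± 0.11 log2 units (SE, with the block; adjusted p = 0.00279 by limma). Klf4, a STAT6-responsive factor, rose by 1.33 ± 0.21 (adjusted p = 0.012), a call lost without Cre IL-4 1 (0.0634) or with no filter (0.0615). Stat6 itself was at 47.2 to 63.9 FPKM and Sfpi1, which encodes PU.1, at 323 to 446 FPKM, and neither was called. No link between these factors and the printed promoters was tested.

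Of 13 receptor partners and proximal signalling genes, all were tested, and limma called Fyn higher and Tlr2 lower without the block, and 3 higher and 6 lower with it (median -0.28 log2 units). Tlr2, which works with Cd36 in sensing bacterial lipids, fell by 1.59 ± 0.15 (SE, with the block; adjusted p = 0.0025), from 35.0 to 47.3 FPKM in controls to 9.04 to 18.1 FPKM. Fyn, a Src kinase downstream of Cd36, rose by 1.56 ± 0.21 (adjusted p = 0.00772), a call lost without Cre IL-4 1 (0.0503). Cd14, the co-receptor for endotoxin, fell by 1.67 ± 0.25 (0.0105), Vav1 by 0.53 ± 0.09 (0.0131), the tetraspanin Cd81 by 0.74 ± 0.13 (0.0149) and the kinase Lyn by 0.49 ± 0.09 (0.0171). Cd14 lost the call without Ern1f/f control 1 or Cre IL-4 1 (limma adjusted p up to 0.0513) or with no filter (0.0553). Vav1 (up to 0.065) and Cd81 (up to 0.0656; 0.0579 with no filter) lost it without Ern1f/f control 2 or either Cre IL-4 library, and Lyn (up to 0.0736) in 6 of 8 such fits, all but those without Cre control 2 or Cre IL-4 2. The calls of Fyn and Tlr2 without the block were lost whichever library was left out (up to 0.197 and 0.168).

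Of 15 genes that handle scavenged lipoprotein lipid 14 were tested. Apoc2, an activator of lipoprotein lipase, fell by 1.80 ± 0.19 log2 units with IL-4 (SE, with the block; adjusted p = 0.00373 by limma) and was also called without the block (0.023), though not then with any library left out (up to 0.116). Apoe, a ligand of lipoprotein receptors, fell by 0.75 ± 0.12 (0.0122), a call lost without any library of the Ern1f/f control or Cre IL-4 group (up to 0.0657) or with no filter (0.215). No gene of the list was called higher, and its median was 0.03. Of 9 lysosomal membrane genes, limma called none without the block. With it Atp6v0d2, a subunit of the proton pump, rose by 0.90 ± 0.09 (adjusted p = 0.0035). Mcoln1, a lysosomal calcium channel, fell by 0.35 ± 0.08 (0.0333), a call lost whichever library was left out (up to 0.132) and with no filter (0.0514). Their median was 0.11.

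**Figure D3:**
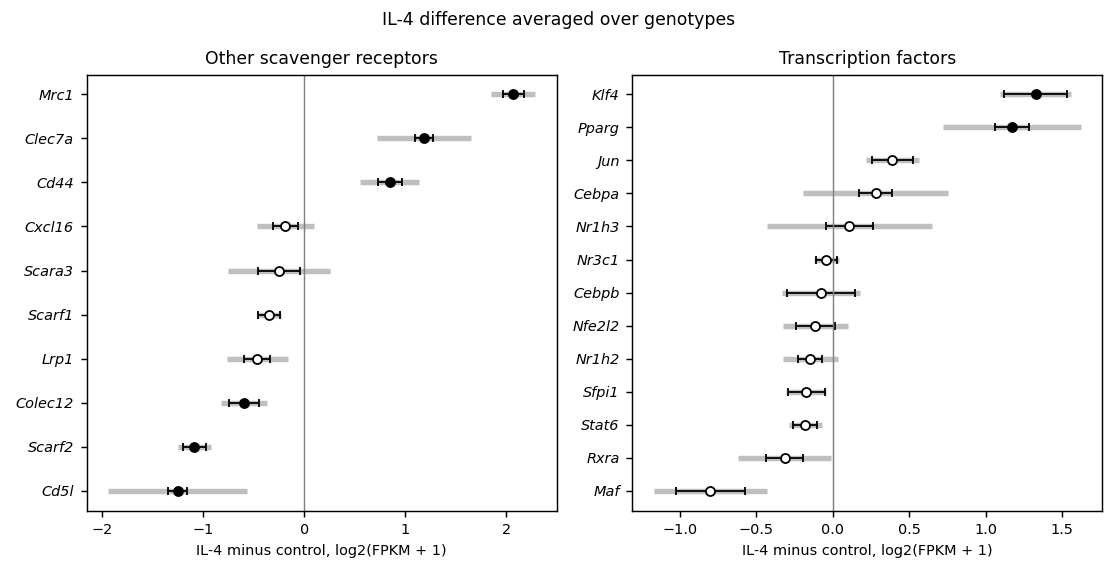
IL-4 minus control averaged over genotypes, on the log2(FPKM + 1) scale (x axes), for 10 other scavenger receptors and 13 of the 14 transcription factors tested (y axes). Points and thin bars are the estimate ± SE with the replicate number as a block, filled where the adjusted p is under 0.05; grey bars are ± SE without the block. Mrc1, Clec7a, Cd44, Pparg and Klf4 lie to the right and Cd5l, Scarf2 and Colec12 to the left.

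The second comparison was by genotype as titled. No receptor was called by limma between Ern1f/fLyz2-Cre and Ern1f/f cells averaged over treatments, with or without the block (0% of all genes in both; lowest adjusted p of a receptor 0.99977). At an unadjusted p under 0.05 there were 0 receptors without the block and 1 with it. That receptor was Msr1, which was lower in the Cre library in all 4 pairs, at 80.4% and 92.2% of Ern1f/f in set 1 (control, then IL-4) and at 65.1% and 77.0% in set 2. Of all tested genes 4.49% were lower in all 4 pairs, and 6.55% were higher, with no receptor among them. The 4 libraries of each genotype overlapped in all 7 receptors, and did not overlap in 0.338% of all genes. Its levels were 153 and 123 FPKM in the controls of set 1 (Ern1f/f, then Cre), 138 and 127 FPKM with IL-4, and 84.5, 55.0, 97.3 and 74.9 FPKM in set 2 in the same order. The averaged log2 difference was -0.35 ± 0.12 (SE, with the block; adjusted p = 0.99977 by limma), with a 95% interval from -0.63 to -0.08 for this gene alone.

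The other 6 tested receptors had averaged genotype differences between -0.29 (Marco) and 0.22 (Stab1) log2 units. In control cells alone limma called no receptor (0 at an unadjusted p under 0.05 without the block, 1 with it), and none with IL-4 (0 in both fits; 0% of all genes without the block and 0.00915% with it). For the interaction, the IL-4 difference in Ern1f/fLyz2-Cre minus that in Ern1f/f, limma also called no receptor and 0% of all genes with or without the block. With the block the estimate for Cd36 was 0.11 (95% interval -0.93 to 1.15) and that for Marco was -0.22 (-1.44 to 0.995). The interval for Cd36 includes differences of either sign as large as its averaged IL-4 difference, 0.86. That for Marco includes a further fall as large as its averaged IL-4 difference, -1.17, but not a rise of that size. Without the block the Marco interval was -9.97 to 9.53. Differences between genotypes of a size within these intervals were left undecided. In the 5 lists no gene was called by genotype averaged over treatments (1 of 59 at an unadjusted p under 0.05 and 6 with the block, where all genes had 0.476% and 2.04%) or for the interaction (0 in both fits).

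The third comparison set the replicate sets against each other, in a fit with group and number. Limma called 6 of the 7 tested receptors, Marco higher in set 2 and 5 lower, where it called 33.4% of all genes (10.1% higher, 23.3% lower). With median scaling the genes called split into 1663 higher and 1737 lower, against 1104 and 2553 without it, and the median of all genes moved from -0.11 to -0.01 log2 units. By construction this is also the contrast of the genotype field of the labels, while the Lyz2 levels given above run with the titles.

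Marco was 28.0 times higher in set 2 in Ern1f/f controls (14.7 against 412 FPKM), 46.4 times with IL-4, 15.5 times in Cre controls and 57.8 times in Cre cells with IL-4. No library of set 1 reached the lowest of set 2, a pattern that 9.33% of all tested genes showed. Its log2 difference of 4.84 ± 0.25 (SE; adjusted p = 0.000175 by limma) was the fourth highest of 10934 tested genes and the eleventh in size, and the call was kept with each library left out. Fibroblast markers moved with the sets the other way, with the summed levels given above; Col1a1 stood at 31.1 to 203 FPKM in set 1 and 0.444 to 2.60 FPKM in set 2, and Lum, at 0 in 2 libraries of set 2, reached 0.416 FPKM in set 1. Neutrophil markers summed to 12.3 to 30.95 FPKM in set 1 and 26.3 to 49.2 FPKM in set 2, and monocyte markers to 5.89 to 17.2 FPKM and 3.71 to 6.90 FPKM. Of 7 macrophage markers limma called 2 higher and 1 lower in set 2, where it called 10.1% of all genes higher and 23.3% lower. The part of these markers in the result was not tested.

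The receptors lower in set 2 were Msr1, Scarb1, Scarb2, Stab1 and Cd68. Msr1 was lower by 0.81 ± 0.12 log2 units (SE; adjusted p = 0.00384 by limma), at 1.41 to 2.24 times lower across the 4 groups, and Scarb1 by 0.60 ± 0.08 (0.00275), at 1.43 to 1.69 times. In both genes, and in Scarb2 and Cd68, every library of set 2 lay below every library of set 1, as for 22.4% of all tested genes. Scarb2 differed by -0.69 ± 0.16 (0.0196) and Cd68 by -0.40 ± 0.09 (0.0188). Stab1 differed by -0.76 ± 0.24 (0.0482), and its Cre IL-4 library was the exception, with 31.9 FPKM in set 1 and 37.1 FPKM in set 2.

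With no filter fewer receptors were called between sets, with the count given below. The calls of Msr1 and Scarb1 were kept with each library left out. That of Scarb2 was lost without either library of the Ern1f/f control or of the Cre control (adjusted p by limma 0.0606 to 0.0749). That of Cd68 was lost without any library of the Ern1f/f control, Cre control or Cre IL-4 group (0.0588 to 0.0792), and with median scaling (0.0649). That of Stab1 was lost without any library of the Ern1f/f control, Ern1f/f IL-4 or Cre control group (0.114 to 0.159), and with median scaling (0.0804). Cd36 did not pass: it was lower in set 2 in the Ern1f/f libraries and higher in the Cre libraries, with an average of -0.03 ± 0.22, or 0.08 with median scaling.

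**Figure D4:**
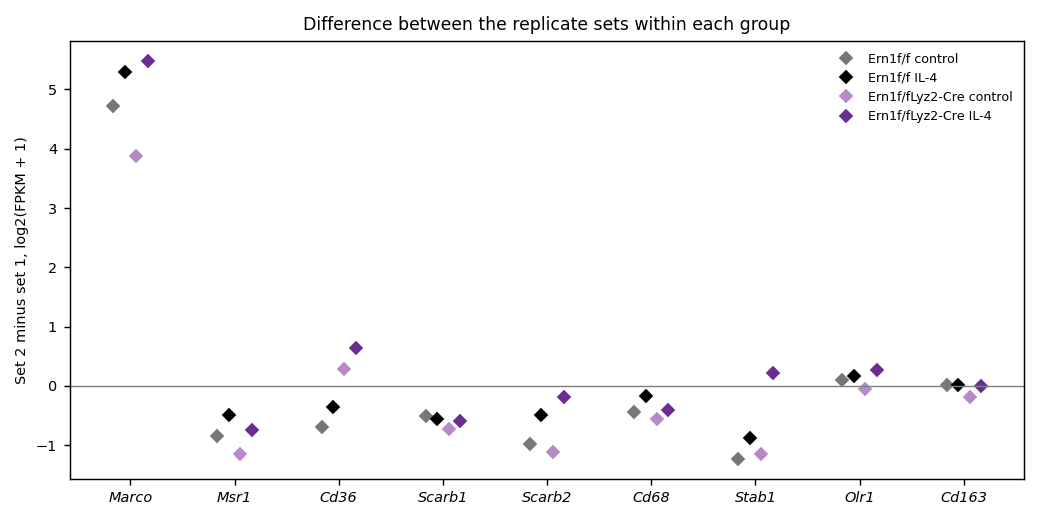
Set 2 minus set 1 within each group on the log2(FPKM + 1) scale (y axis) for each receptor (x axis), with 1 point per group. Marco lies between 3.88 and 5.49; Msr1, Scarb1, Scarb2 and Cd68 lie below 0 in all 4 groups, and Cd36 lies on both sides of 0.

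The genes listed beside the receptors also parted by set. Limma called 10.1% of all genes higher in set 2 and 23.3% lower. Among the transcription factors it called 6 of 14 lower in set 2 and none higher. Among them were Nr1h3, which encodes LXRα, by -1.26 ± 0.15 log2 units (SE; adjusted p = 0.00239 by limma), Cebpa by -1.13 ± 0.11, Pparg by -1.07 ± 0.11, Rxra by -0.67 ± 0.12 and Nr1h2 by -0.38 ± 0.08. Of these 5, all but Nr1h2 (0.056 without either Cre control library) kept the call with each library left out. Of the 10 other scavenger receptors tested, 1 was higher in set 2, Cd5l by 1.67 ± 0.10 (adjusted p = 0.000243 by limma), and 6 were lower, among them Clec7a by -1.11 ± 0.09, Cd44 by -0.64 ± 0.12, Lrp1 by -0.65 ± 0.13 and Cxcl16 by -0.62 ± 0.12. Scara3, counted among the 6, stood at 0.469 to 2.38 FPKM in set 1 and at 0 to 0.0505 FPKM in set 2. It passed the filter only through set 1, so its direction was fixed by the filter.

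Receptor partners went the other way in part, with 5 of 13 higher in set 2 and none lower, where 10.1% of all genes were higher and 23.3% lower. The leading one was Cd81, at 17.4 to 44.7 FPKM in set 1 and 62.1 to 107 FPKM in set 2 (1.49 ± 0.13 log2 units, adjusted p = 0.000698 by limma). It was followed by Vav1 and Syk, which like Cd81 kept the call with each library left out. Lyn (0 of 8 such fits, adjusted p up to 0.0823 by limma) and Tlr6 (2 of 8, up to 0.084) did not keep it. Of the lipid-handling genes 1 was higher (Abcg1, the efflux pump, by 0.38 ± 0.09, a call kept in 2 of 8 fits with a library left out) and 6 lower, led by Apoe at -2.11 ± 0.12 (adjusted p = 0.000233). Apoe stood at 14200 to 22860 FPKM in set 1 and 2558 to 6486 FPKM in set 2. The other 5, Lipa, Npc1, Npc2, Nceh1 and Fabp5, each kept the call in 2 of 8 fits with a library left out and lost it with median scaling (limma adjusted p 0.0784 to 0.0996) and with no filter. Of the 9 lysosomal genes 2 were lower, Cd63 and Npc1, where 23.3% of all genes were; both calls were lost with median scaling, and with a library left out Cd63 kept it in 0 of 8 fits and Npc1 in 2.

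The genes with the pattern most like each receptor's were found for the receptors whose log2 values had an SD of at least 0.5 over the 8 libraries, by the root mean square difference of centred log2 values. For Marco (SD 2.69) they were I830012O16Rik (0.391 log2 units), Ifit3 (0.416) and Ifit1 (0.635). For Cd36 (SD 0.544) they were Baiap2 (0.145), Pcna (0.179) and Gm7120 (0.182), and for Stab1 (SD 0.622) Ndst1 (0.16), Arhgap19 (0.171) and Slc9a9 (0.182). These are descriptions over 8 libraries that share 2 sets and 2 treatments. The nearest genes to Marco differed from it by more log2 units than those to Cd36 or Stab1, but Marco itself varied more. The differences are not scaled to the SD of each receptor, so they do not rank how well the patterns match. Msr1 (SD 0.498), Scarb2 (0.471), Scarb1 (0.335) and Cd68 (0.231) varied less and were not matched.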

How the data were processed

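Gene-level FPKM made and deposited by the authors were used, with a confidence interval per gene and library. The submitters' processing notes name TopHat 1.4.1, Cufflinks 1.3.0 and the build mm10; the gene models are not given in the sources used here. Each table held 23838 rows, and rows of the same symbol were added; each receptor had 1 row. The interval, taken as the value ± 2 SE, gave the fragments implied for a gene, and these served to describe depth only. Of genes under 60 implied fragments, 76.1% to 77.9% per library came within 0.02 of a whole number; read counts were not used. Intervals cover counting error only.

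Values were fitted as log2(FPKM + 1) with limma 3.58.1 (R 4.3.3; empirical Bayes with a variance trend, 4 group means, two-sided), for genes at or above 1 FPKM in at least 2 libraries, with Benjamini-Hochberg adjustment over all 10934. A fold change from it is on that scale and understates the change of low genes. The code of the fit was run on simulated normal values with a shift between sets. That run checked the estimates of the code, and not whether the model suits these data. The main design had no block. The numbers pair the libraries by a check in the data, not by the labels: in each of 6 pairs of groups, set 2 minus set 1 correlated across genes with r from 0.688 to 0.827, so values with the number as a block are given where they change a call. The difference between sets came from a fit with group and number. The members and the lists were chosen with earlier results of these data known. Named list genes were those past the threshold with or without the block, up to 6 per list and comparison by smallest p. Promoters came from RefSeq, for 7 of the 9 genes. Alternatives were scaling, pseudocounts of 0.1 and 5, no filter, no trend, the block, the genotype field, the highest row per symbol and each library left out. Plots used Python 3.11.15 and matplotlib 3.10.9. A transcription factor of the lists is counted but not reported here by name.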

Additional observations from a re-analysis of the deposited data

Results flagged for a closer look

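In Cd36 and Scarb1 the genotype difference had 1 sign in both treatments of set 1 and the other sign in both treatments of set 2. Cd36 was lower in Ern1f/fLyz2-Cre than in Ern1f/f cells in set 1, by -0.44 log2 units in controls and -0.34 with IL-4, and higher in set 2, by 0.54 and 0.66. The mean difference between the sets was 0.99. In Scarb1 the differences were 0.06 and 0.01 in set 1 and -0.17 and -0.03 in set 2, and the sets differed by -0.13. Of all tested genes 16.6% showed such a pattern of signs. In a test added after the values were seen, with means of genotype by set and treatment as a term, the difference was 0.99 ± 0.21 (SE) for Cd36, with an adjusted p of 0.201 by limma (unadjusted 0.0016), and -0.13 ± 0.15 for Scarb1 (adjusted 0.999). That fit called 18 of 10934 genes, and no receptor.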

How the results depend on the processing

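With the replicate number as a block, the count of genes called for IL-4 went from 92 to 1393 averaged over genotypes, from 0 to 232 in Ern1f/f and from 6 to 363 in Ern1f/fLyz2-Cre cells, that for genotype with IL-4 went from 0 to 1, and receptors called for IL-4 went from 0 to 2; it changed no other call of a receptor. Groups taken from the genotype field instead of the titles gave 2264 genes for IL-4 in Ern1f/f, 1273 in Cre and 2919 averaged, 3816 for genotype in control cells, 3273 after IL-4 and 5240 averaged, and 106 for the interaction. Receptors called were then 3, 1, 4, 6, 3 and 6 in the first 6 of these. The averaged genotype difference then became 4.84 for Marco, -0.03 for Cd36, -0.76 for Stab1 and -0.40 for Cd68, and the interaction 1.09 for Marco and 0.86 for Stab1; it then compares the sets. Median scaling gave 11 genes for IL-4 in Ern1f/f and 20 in Cre cells, and turned the set difference of Cd36 to 0.08. A pseudocount of 0.1, no filter or no trend gave 0 in Cre cells. No filter gave 657 genes for IL-4 with the block. Between sets it gave 3 receptors, where it called 18.1% of 17656 genes. The causes were not tested.

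With 1 library left out, which leaves 1 sample in a group that is assumed to vary like the other groups, counts of genes for IL-4 were 0 to 1 in Ern1f/f, 0 to 1 in Cre cells, 3 to 49 averaged and 491 to 1226 averaged with the block, and between sets 2319 genes at the lowest and 2629 at the highest, with 3 to 5 receptors. The group that loses a library is left with 1 set, so without the block these differences also carry the difference between sets. Log2 differences that changed sign without the block were, for IL-4, Marco -2.54 to 0.20, Msr1 -0.15 to 0.42, Scarb1 -0.33 to 0.03 and Cd68 -0.19 to 0.09. For genotype they were Marco -1.66 to 1.08, Cd36 -0.07 to 0.28, Scarb1 -0.22 to 0.15, Scarb2 -0.32 to 0.23, Stab1 -0.09 to 0.53 and Cd68 -0.13 to 0.15. For the interaction they were Marco -2.96 to 2.52, Msr1 -0.36 to 0.79, Cd36 -0.23 to 0.46, Scarb1 -0.32 to 0.41, Scarb2 -0.54 to 0.57, Stab1 -0.82 to 0.41 and Cd68 -0.10 to 0.46. With the block the IL-4 difference kept its sign, at -1.49 to -0.85 for Marco and 0.64 to 1.09 for Cd36. The set difference of Cd36 ranged from -0.26 to 0.19. Depth limits Olr1 and Cd163.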
